A study of Rattus norvegicus with 15 samples.

Results

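The 10 genes described here encode small leucine-rich proteoglycans, secreted proteins built around a curved array of leucine-rich repeats. They were taken by gene symbol from the array's probe annotation, and all 10 listed members (Dcn, Bgn, Fmod, Lum, Prelp, Omd, Kera, Epyc, Ogn and Aspn) were measured, out of 18166 genes named by a single symbol among 36685 probe sets. Each member had 1 probe set, so no choice between probe sets was needed. The levels come from knee articular cartilage of Sprague-Dawley rats at 5 stages of life. T0 is newborn, T1 youth, T2 adult, T3 early-stage elderly and T4 latter-stage elderly. Each stage had 3 arrays, labelled biological replicates, of total RNA from the right knee. No animal was treated, and all stages share strain, joint and protocol. Cartilage was harvested individually and ground before extraction. The sources used here give neither ages nor sexes, nor whether an array held tissue of more than 1 animal. The p-values therefore measure the spread between these arrays, which may be partly technical. The labels of T1 replicate 3 conflict: its source name says adult, whereas its title and stage say youth. It was kept with T1.

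Members of this protein family bind collagen fibrils through their curved inner face and set how thick and how regularly spaced the fibrils become. Most carry sugar chains: decorin and biglycan carry chondroitin or dermatan sulfate, whereas fibromodulin, lumican and keratocan can carry keratan sulfate. Several also hold growth factors of the TGF-beta family in the matrix, and free biglycan and decorin can act on cell surface receptors. In cartilage, the surrounding matrix is made mainly of type II collagen and aggrecan, and chondrocytes produce both.

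The tissue was checked against 9 measured markers of chondrocytes (10 listed). Their mean log2 signal went from 9.88 in the newborn over 9.39, 8.37 and 7.18 to 6.20 at T4. Type II collagen (Col2a1) stood at 12.36 ± 0.06 at T0 and 8.0 ± 1.47 at T4 (SD, n = 3). The cartilage transcription factor Sox9 was weak throughout, with stage means between 5.12 and 5.58. A background was taken on each array from 68 olfactory receptor genes, which serve odour sensing in the nose. At T4, 8 of the 9 chondrocyte markers had a stage mean at or below the 95th percentile of these genes. That percentile was itself higher there: 6.53 to 7.25 on the T4 arrays, against 5.36 to 5.48 on the T0 arrays. Counts against it at T4 thus meet a higher cutoff than at T0. Markers of other tissues were present as well. The mean of 9 skeletal muscle markers was 11.23 at T0, 8.29 at T1 and 4.79 at T2, and that of 6 erythroid markers was 6.14 at T0 and 10.98 at T1. The T4 arrays had a narrower spread of signals (SD over probe sets 1.62 ± 0.13 against 2.02 ± 0.02 at T0) and a mean correlation with each other of 0.839, against 0.977 at T0. T4 replicate 1 stood farthest apart: it correlated with the arrays of the first 3 stages at 0.529 on average. On bulk tissue, fewer cells of a type and less RNA per cell cannot be told apart.

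Of the 10 members, 9 lie in 3 uninterrupted runs of protein-coding genes in the RefSeq gene table (assembly GRCr8). Dcn, Lum, Kera and Epyc follow each other on chromosome 7, Ogn, Omd and Aspn on chromosome 17, and Prelp and Fmod on chromosome 13. Bgn lies apart on chromosome X. Promoter windows were found for 7 of the 10 members. The windows of 5 of them are shown, as examples of neighbours that took different courses in the values below. Each is the 250 bases before the annotated start, 5′ to 3′ on the strand of the gene, from RefSeq on GRCr8. Capitals mark matches, on either strand, to the TATA box (TATAAA), to the CCAAT box, to a core bound by SOX factors (AACAAT) or to the AP-1 site (TGANTCA, where N is any base). Epyc (chr7:34323082-34323331, plus strand), Kera (chr7:34283850-34284099, plus strand), Lum (chr7:34245456-34245705, plus strand), Omd (chr17:15274871-15275120, minus strand) and Aspn (chr17:15310470-15310719, minus strand) read as follows.
Epyc: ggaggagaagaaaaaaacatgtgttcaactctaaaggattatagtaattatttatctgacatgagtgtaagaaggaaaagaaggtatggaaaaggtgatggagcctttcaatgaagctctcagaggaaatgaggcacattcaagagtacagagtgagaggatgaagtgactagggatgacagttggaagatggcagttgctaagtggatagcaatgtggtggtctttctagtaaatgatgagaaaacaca
Kera: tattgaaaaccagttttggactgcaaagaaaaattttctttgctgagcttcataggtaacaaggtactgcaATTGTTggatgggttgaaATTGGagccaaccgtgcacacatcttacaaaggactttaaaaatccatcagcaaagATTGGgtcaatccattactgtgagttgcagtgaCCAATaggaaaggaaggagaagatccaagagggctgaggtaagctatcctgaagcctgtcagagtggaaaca
Lum: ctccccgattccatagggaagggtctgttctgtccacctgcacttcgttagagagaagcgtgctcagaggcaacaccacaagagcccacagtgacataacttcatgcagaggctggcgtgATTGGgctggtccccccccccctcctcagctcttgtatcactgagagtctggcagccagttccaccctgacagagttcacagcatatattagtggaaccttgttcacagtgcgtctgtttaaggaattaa
Omd: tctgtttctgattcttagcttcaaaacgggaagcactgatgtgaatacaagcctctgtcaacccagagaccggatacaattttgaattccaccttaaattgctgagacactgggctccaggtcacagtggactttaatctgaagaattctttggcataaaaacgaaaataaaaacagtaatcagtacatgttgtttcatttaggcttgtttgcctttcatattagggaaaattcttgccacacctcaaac
Aspn: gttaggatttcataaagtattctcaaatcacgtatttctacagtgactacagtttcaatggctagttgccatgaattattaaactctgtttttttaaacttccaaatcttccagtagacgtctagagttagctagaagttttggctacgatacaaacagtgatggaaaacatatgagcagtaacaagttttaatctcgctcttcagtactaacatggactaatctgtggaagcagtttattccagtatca

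The Kera window held CCAAT or its complement 72, 105 and 161 bases before the start and AACAAT or its complement 179 bases before it. The Lum window held CCAAT or its complement 130 bases before the start. The windows of Epyc, Omd and Aspn held none of the 4 motifs. Among all 33469 promoter windows of this length, 34.0% held the CCAAT box, 12.9% the TATA box, 10.3% the SOX core and 6.3% the AP-1 site. Of the 7 member windows, 3 held the CCAAT box (Kera, Lum and Fmod), 1 the TATA box (Ogn), 1 the SOX core (Kera) and none the AP-1 site. These are matches of letters and do not show binding.

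Over the 5 stages the members fell into 4 courses. Epyc and Kera were high in the newborn and were at the background by T1 and T2. Aspn and Ogn were highest in the newborn and had fallen by the adult stage. Omd was low in the newborn and highest in youth. Dcn, Bgn, Fmod, Lum and Prelp stayed among the strongest signals of each array until T2 or T3 and were lower at T4. These traits are partly shared. Ogn was also still strong at T3 (mean percentile 97.0 among named genes). Dcn, Bgn, Fmod and Lum were also highest in the newborn, but only Ogn and Aspn of these had a called fall from T0 to T2. In limma's moderated F test over stages all 10 passed (Benjamini-Hochberg adjusted p from 2.55e-08 for Epyc to 0.000141 for Dcn), as did 60.1% of all probe sets. Without the T4 arrays 8 passed this F test, beside 9366 of the 36685 probe sets. Dcn (F test adjusted p = 0.326) and Prelp (F test adjusted p = 0.0847) did not.

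**Figure D1:**
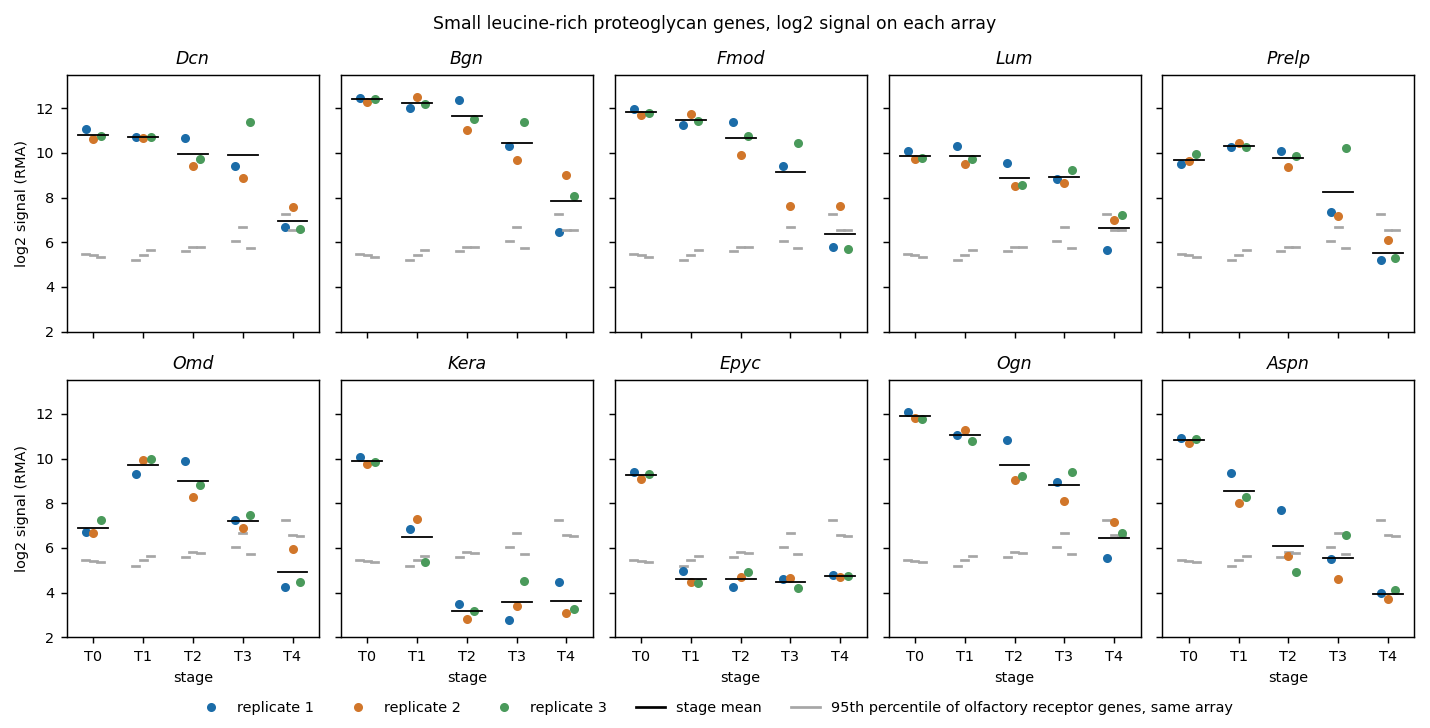
The log2 signal of each of the 10 genes is plotted for 15 arrays at 5 stages, T0 newborn to T4 latter-stage elderly. Points are arrays, black bars are stage means, and grey ticks mark the 95th percentile of olfactory receptor genes on the same array. Epyc lies between 9.09 and 9.39 at T0 and below the grey ticks from T1 on.

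Epyc encodes epiphycan, a proteoglycan of epiphyseal cartilage. Its log2 signal was 9.39, 9.09 and 9.31 in the newborn arrays and 4.97, 4.47 and 4.45 in youth. All newborn arrays lay above all later ones, and the groups did not overlap. The fall was 4.63 on the log2 scale (SE 0.22, 24.8-fold, limma adjusted p = 3.45e-08). From T1 to T4 the stage means lay between 4.48 and 4.76, and none of the 12 later arrays rose above the 95th percentile of the olfactory receptor genes. The change from T1 to T2 was 0.00 (95% interval -0.47 to 0.48). Since the later arrays lay in the background, the fold is what the array could show and can understate the change.

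Kera encodes keratocan, a keratan sulfate proteoglycan best known from the cornea, where it helps to keep fibrils evenly spaced. In the newborn arrays it stood at 10.08, 9.76 and 9.85. In youth it stood at 6.83, 7.29 and 5.38, and in the adult at 3.48, 2.84 and 3.20. Each of these 3 groups was separate from the next, and T1 replicate 3 was the lowest of the youth arrays. Kera fell by 3.39 from T0 to T1 (SE 0.51, 10.5-fold, limma adjusted p = 0.000576) and by a further 3.33 from T1 to T2 (SE 0.51, 10.1-fold, limma adjusted p = 0.00614). The second call was lost with T1 replicate 3 placed with T2 (change -3.34, limma adjusted p = 0.173). From newborn to adult the fall was 6.72 (SE 0.51, limma adjusted p = 6.99e-07). None of the arrays from T2 on lay above the olfactory 95th percentile, so this size depends on the probe set's own background. The 3 markers listed for corneal keratocytes (Aldh3a1, Aldh1a1 and Ptgds) had a mean of 4.82 at T0, where all 3 were at or below the background.

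Muscle and tendon markers were high in the same newborn arrays. The 9 measured skeletal muscle markers fell from a mean of 11.23 (arrays 10.95 to 11.49) at T0 to 8.29 (7.80 to 8.77) at T1 and 4.79 (4.61 to 5.01) at T2. The 5 tendon and ligament markers stood at 8.11, 6.68 and 5.52, and the tendon membrane protein tenomodulin (Tnmd) at 9.97, 7.33 and 4.09. Tnmd fell by 2.64 from T0 to T1 (SE 0.38, limma adjusted p = 0.000406). T1 replicate 3 had the lowest mean of the muscle and tendon lists among the youth arrays, as it did for Kera. It was also the lowest youth array for the chondrocyte, fibroblast, erythroid and corneal keratocyte lists. This did not hold for the superficial zone, osteoblast, adipocyte and myeloid lists. The part of muscle and tendon in the falls of Epyc and Kera was not tested.

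**Figure D2:**
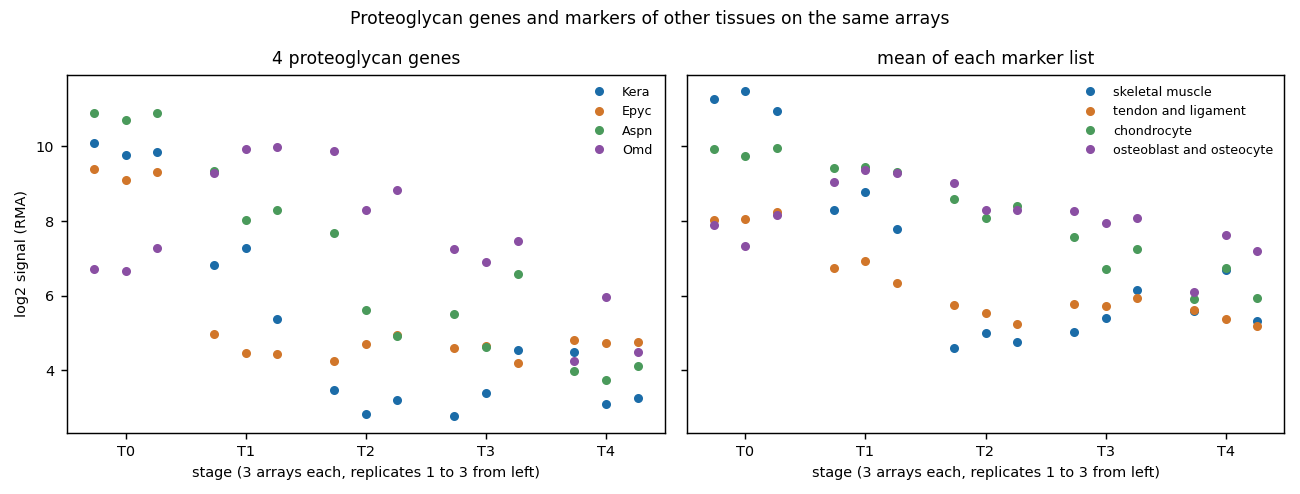
Log2 signals of Kera, Epyc, Aspn and Omd (left) and the mean log2 signal of 4 marker lists (right) are plotted for the same 15 arrays, 3 per stage. Kera and the skeletal muscle list are both highest at T0 and lower at T1 and T2, whereas Epyc drops in 1 step and the osteoblast list is higher at T1 than at T0.

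Aspn encodes asporin, which binds collagen and TGF-beta and has been studied in osteoarthritis. It stood at 10.90, 10.71 and 10.89 in the newborn arrays, at 9.35, 8.02 and 8.29 in youth and at 7.69, 5.63 and 4.92 in the adult. The arrays of these 3 stages did not overlap, although the adult arrays were spread over 2.77. Aspn fell by 2.28 from T0 to T1 (SE 0.60, 4.85-fold, limma adjusted p = 0.0303) and fell by 4.75 from T0 to T2 (SE 0.60, limma adjusted p = 6.38e-05). In the adult, replicates 2 and 3 lay below the olfactory 95th percentile, so the size of the second fall depends on the probe set's background. The first call was lost in 7 of 23 alternatives, among them quantile normalization (limma adjusted p = 0.0521), and the second in none. From T1 to T2 the change was -2.47 (SE 0.60, limma adjusted p = 0.0777). It passed without T2 replicate 1 (-3.28, limma adjusted p = 0.00764). At T4 its arrays stood at 3.97, 3.73 and 4.13, all below the olfactory 95th percentile.

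Ogn encodes osteoglycin, also called mimecan, which binds collagen fibrils in bone, cornea and vessel walls. Its newborn arrays stood at 12.08, 11.83 and 11.77, the youth arrays at 11.05, 11.28 and 10.77 and the adult arrays at 10.82, 9.06 and 9.20. Newborn and youth were separate, while T2 replicate 1 reached into the range of youth. The change from T0 to T1 was -0.86 (SE 0.48, limma adjusted p = 0.442), and that from T1 to T2 was -1.34 (SE 0.48, limma adjusted p = 0.317). Only the sum of the steps passed: from T0 to T2 Ogn fell by 2.20 (SE 0.48, 4.61-fold, limma adjusted p = 0.00505). Fibroblast, tendon, chondrocyte and skeletal muscle markers were lower over the same stages as Aspn and Ogn. The mean of the 9 measured fibroblast markers was 9.39, 8.52 and 7.64 at T0, T1 and T2. From T0 to T2, 6 of these 9 fell, as did all 5 tendon markers, beside 9.56% of all named genes. So did 6 of the 9 measured chondrocyte markers and all 9 measured skeletal muscle markers. The part of these tissues in the values of Aspn and Ogn was not tested.

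Omd encodes osteomodulin, a keratan sulfate proteoglycan first described in bone that binds mineral and cells. It was the single member to rise. In the newborn it stood at 6.72, 6.65 and 7.27, and in youth at 9.29, 9.92 and 9.98. All youth arrays lay above all newborn ones. The rise was 2.85 (SE 0.44, 7.23-fold, limma adjusted p = 0.000749). The adult arrays stood at 9.88, 8.30 and 8.83, still 2.12 above the newborn (SE 0.44, limma adjusted p = 0.00385). Its T3 arrays lay at 7.26, 6.90 and 7.47, below all adult arrays as in 10.4% of probe sets, a change of -1.80 (SE 0.44, limma adjusted p = 0.0744). That step passed without the T4 arrays (limma adjusted p = 0.0315) and without T3 replicate 3 (-1.92, limma adjusted p = 0.0306). Markers of osteoblasts and osteocytes were higher in youth too: the mean of the 10 listed genes was 7.79 in the newborn, 9.24 in youth, 8.54 in the adult and 8.10 at T3, and 5 of the 10 rose from T0 to T1. Other lists were higher in youth as well: the erythroid mean went from 6.14 to 10.98, the myeloid mean from 5.55 to 8.89 (8 of 9 rose) and the adipocyte mean from 5.35 to 6.64 (5 of 8 rose). The part of these cells in the rise of Omd was not tested.

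From newborn to youth, then, 4 of the 10 members changed: Epyc, Kera and Aspn fell and Omd rose. Of all probe sets, 7.56% were called in this comparison, 3.54% falling and 4.01% rising. From youth to adult 1 member (Kera) fell, where 0.891% of probe sets were called and 0.403% fell. The arrays of Kera, Aspn and Prelp were lower in the adult without overlap, as in 10.4% of probe sets. From newborn to youth those of Epyc, Kera, Aspn and Ogn were lower without overlap, as in 17.4%. From newborn to adult 4 fell (Epyc, Kera, Aspn and Ogn) and Omd rose, against 12.7% of probe sets called in either direction, 6.51% rising and 6.19% falling. From newborn to youth the median change over the members was -0.27, beside -0.03 over all named genes, and from youth to adult it was -0.77 beside -0.01.

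**Figure D3:**
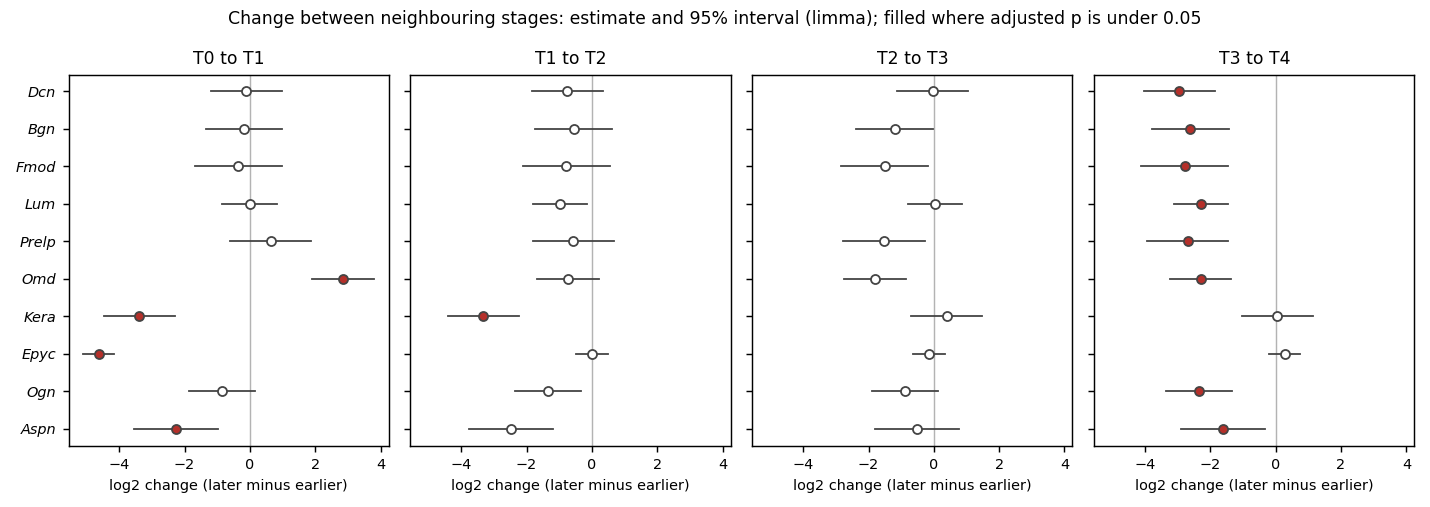
The log2 change (later minus earlier stage) of each gene is plotted for the 4 steps between neighbouring stages, with limma's 95% interval. Filled points passed at an adjusted p under 0.05: 4 genes at the first step, 1 at the second, none at the next and 8 at the last.

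Decorin and biglycan are the best known members of the family and share the chondroitin or dermatan sulfate chain. Dcn stood at 11.05, 10.63 and 10.74 at T0, at 10.71, 10.65 and 10.72 at T1, and at 10.66, 9.41 and 9.73 at T2. T0, T1 and T2 overlapped, with T2 replicates 2 and 3 below all earlier arrays. The change from T0 to T1 was -0.12 (95% interval -1.20 to 0.97), and that from T0 to T2 was -0.87 (SE 0.51, limma adjusted p = 0.389). Bgn stood at 12.46, 12.29 and 12.42 at T0 and at 11.99, 12.48 and 12.16 at T1. Its adult arrays, at 12.37, 11.03 and 11.53, reached from the newborn range to a lower one. The change from T0 to T2 was -0.74 (SE 0.55, limma adjusted p = 0.556). Intervals of this width, which are not adjusted, would not show a change below about 1 on the log2 scale. After adjustment larger changes went uncalled too, such as -1.20 for Bgn from T2 to T3 (limma adjusted p = 0.243).

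Fibromodulin (Fmod) and lumican (Lum) bind the same region of collagen fibrils and are both made in tendon and cartilage. Fmod stood at 11.95, 11.70 and 11.78 at T0 and at 11.37, 9.88 and 10.76 at T2. The adult arrays were all below the newborn ones, yet the change of -1.14 (SE 0.62) did not pass (limma adjusted p = 0.347). Lum stood at 10.09, 9.72 and 9.76 at T0 and at 9.56, 8.52 and 8.55 at T2. These groups were also separate, and the change was -0.98 (SE 0.39, limma adjusted p = 0.139). It passed without the T4 arrays (limma adjusted p = 0.0418). Of all probe sets, 18.5% had every adult array below every newborn one.

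Prelp encodes prolargin, which binds collagen and, through a basic amino-terminal stretch, heparan sulfate. It stood at 9.50, 9.62 and 9.95 at T0 and at 10.27, 10.42 and 10.28 at T1. Every youth array lay above every newborn array, as for 14.9% of probe sets, and the change of 0.63 (SE 0.58) did not pass (limma adjusted p = 0.778). The adult arrays, at 10.06, 9.37 and 9.84, all lay below the youth arrays and overlapped the newborn ones.

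From adult to early-stage elderly no member passed by limma, where 0.15% of probe sets did (0.112% falling, and 0.411% of the strong signals described below), and 4 had an unadjusted p under 0.05 (Bgn, Fmod, Prelp and Omd), as did 19.8% of all probe sets. All 4 were lower at T3, with changes from -1.20 for Bgn to -1.80 for Omd. Being lower at this unadjusted p held for 8.89% of all probe sets and for 24% of the strong signals. With array weights, which count arrays that stand apart less, the same 4 passed (limma adjusted p from 0.00127 for Prelp to 0.0210 for Fmod) beside 10464 probe sets in all. The estimate of these weights stopped before it had converged, so these values serve as an alternative only. T3 replicate 3 differed from its group in most members. Prelp stood at 7.35, 7.16 and 10.20, Dcn at 9.43, 8.89 and 11.39, and Fmod at 9.39, 7.64 and 10.46, each with replicate 3 highest. Without that array Fmod (-2.16), Prelp (-2.51) and Omd passed (limma adjusted p = 0.0384, 0.00101 and 0.0306), while 4165 probe sets were called in all. T3 replicate 3 also had the highest mean of the superficial zone markers (8.94, against 7.58 and 7.65) and of the fibroblast markers (7.92, against 7.12 and 6.65). The same held for the skeletal muscle (6.16), tendon (5.94), erythroid (10.73) and myeloid (10.15) lists. It did not hold for the chondrocyte (7.25, against 7.58 and 6.71), osteoblast, adipocyte and corneal keratocyte lists. This array also had a wider spread of signals (SD over probe sets 1.97, against 1.86 and 1.83).

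From early to latter-stage elderly 8 members fell, all but Kera and Epyc, which were already in the background. Dcn went from 9.43, 8.89 and 11.39 to 6.68, 7.57 and 6.58, a fall of 2.96 (SE 0.51, 7.77-fold, limma adjusted p = 0.00101). Bgn went from 10.32, 9.66 and 11.37 to 6.44, 8.99 and 8.07, a fall of 2.61 (SE 0.55, limma adjusted p = 0.00275). In both genes every T4 array lay below every T3 array, as in 25.8% of probe sets. The same held for Lum, Prelp, Omd, Ogn and Aspn, whereas the T3 and T4 arrays of Fmod overlapped. Lum stood at 5.65, 6.98 and 7.23 at T4, Ogn at 5.56, 7.16 and 6.67 and Prelp at 5.21, 6.11 and 5.29. T4 replicate 1 was the lowest array for Bgn, Lum, Prelp, Omd and Ogn. The 8 falls ran from 1.63 for Aspn (SE 0.60, limma adjusted p = 0.0423) to 2.96 for Dcn. Aspn lost its call in 11 of 22 alternatives. With only the 6 arrays compared, Bgn, Fmod, Prelp and Aspn did not pass.

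These falls stood beside a fall of most strong signals on the same arrays. Of all probe sets 42.2% were called from T3 to T4, and 25.8% fell. The 8 members were among 1705 named genes with a mean log2 signal of at least 8 over T0 to T2, and 89.2% of those genes fell. Their median change was -1.56, and that of the 8 members among them was -2.48. From T2 to T4 the same 8 members fell, beside 94.3% of these genes and 29.4% of all probe sets (56.5% called in either direction). Their arrays did not overlap at this step, as in 31.3% of probe sets that were lower. The median changes at this step were -2.01 for the 1705 genes and -3.52 for the 8 members. The share of members that fell is near that of other strong signals, while their median falls were larger in size, a difference for which no test was run. The 1705 genes were not matched to the members by level. At T2 Bgn (11.65) and Fmod (10.67) stood well above the minimum of 8, and Aspn (6.08) below it. The part of signal level in the larger median falls was not tested. Without T4 replicate 1, the T2 to T4 changes of the 8 ran from -1.77 for Lum to -4.05 for Prelp. All 8 still passed, beside 18121 of the 36685 probe sets called in either direction.

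Ranks within an array are not altered by a narrower spread that keeps the order of signals. Each member was therefore also placed among the 18166 named genes of its array. Ranks can still change where signals reach the background, and the mean olfactory median was 2.97 at T0 and 4.10 at T4. The ranks at T4 are thus not free of the state of those arrays. Dcn lay at a mean percentile of 99.5 at T0 and 98.8 at T3, and at 85.9 to 95.3 on the T4 arrays. Bgn was at 99.9 at T0 and 94.1 at T4. Fmod moved from 99.8 at T0 to 72.2 at T4, Prelp from 98.3 to 51.5 and Ogn from 99.8 to 77.4. Omd rose from 73.7 at T0 to 98.3 at T1 and stood at 83.7 at T3 and 33.8 at T4. Kera was at 98.6, 65.4 and 10.1 at T0, T1 and T2. At T4, 2 of the 3 arrays of Dcn, Bgn, Lum and Ogn lay above the olfactory 95th percentile, as did 1 of Fmod and none of Prelp and Omd. After quantile normalization, which gives all arrays the same spread, the T3 to T4 falls were smaller for Bgn (1.86) and Dcn (2.24) and 2.70 for Prelp. All 8 passed, beside 13240 of the 36685 probe sets called in either direction.

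**Figure D4:**
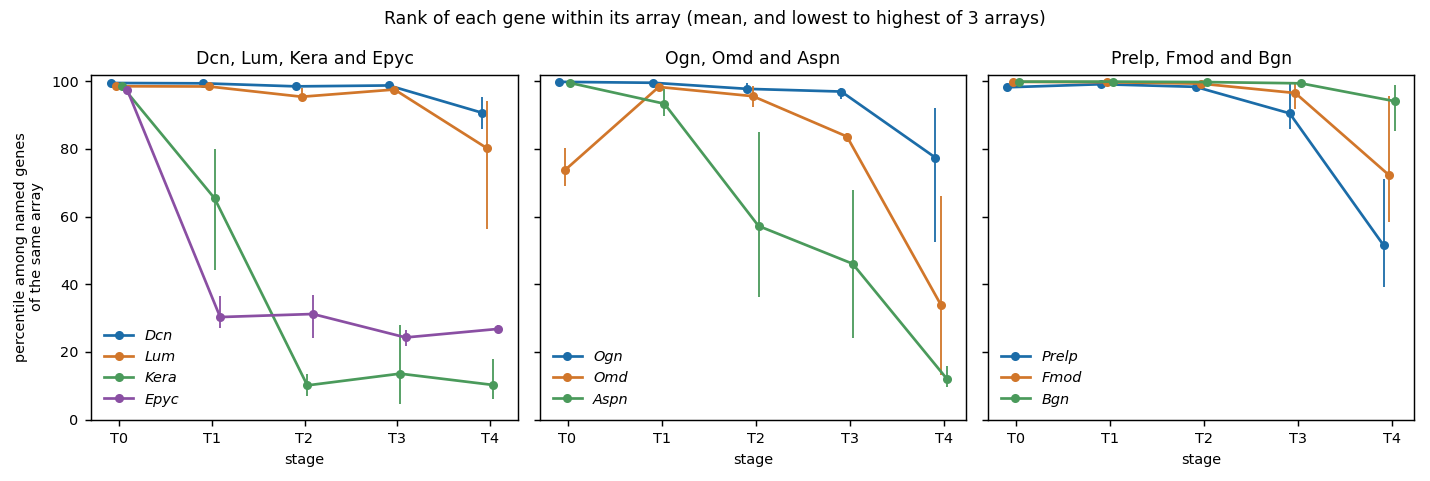
The percentile of each gene among the 18166 named genes of its array is plotted by stage, as the mean with the lowest and highest of 3 arrays. Panels group genes that neighbour each other on a chromosome, with Bgn beside Prelp and Fmod. Kera and Epyc leave the top of the array at T1 and T2, while Dcn and Lum stay above 94 until T3.

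Some genes that neighbour each other on a chromosome differed in their change from newborn to youth, although no ratio passed the permutation test below. The ratio of Kera to its neighbour Lum within an array was lower by 3.38 on the log2 scale in youth than in the newborn (SE 0.62), and that of Omd to Aspn was higher by 5.13 (SE 0.64). The ratio of Ogn to Omd was lower by 3.71 (SE 0.38). The arrays of T0 and T1 did not overlap in any of these 3 ratios. Nor did they overlap in the ratios of Epyc to Kera (-1.24, SE 0.55) and of Prelp to Fmod (0.99, SE 0.21). Epyc lay at the background in youth, which limits what its ratio to Kera can show. From T1 to T2, where Kera was at the background in the adult, that ratio was higher by 3.33 (SE 0.65), again without overlap. How often the ratios of other gene pairs do not overlap was not computed. The ratio of Lum to Dcn differed by 0.11 from T0 to T1 (SE 0.23), and its arrays overlapped. The exact two-sided permutation test gave p = 0.1 for each ratio that did not overlap, which is the smallest p that 3 arrays against 3 allow. The adjusted p of this test was 0.180 over 18 comparisons, which cover all neighbour ratios and further steps between stages.

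Over the 12 arrays of T0 to T3, the members' log2 signals had a median Pearson correlation of 0.72 over their 45 pairs, and 13 pairs were above 0.8. The arrays share stage, dissection and normalization, so these values describe the arrays. The share of other gene pairs above 0.8 was not computed, so the count does not show that members vary together more than other genes. Bgn and Fmod were closest (0.98), then Ogn and Aspn (0.96) and Kera and Aspn (0.94). Omd stood apart, with -0.61 against Epyc and -0.29 against Kera. After the stage means were taken out, Bgn and Fmod (0.95), Dcn and Bgn (0.93) and Lum and Aspn (0.93) still varied together from array to array. Kera and Epyc, at 0.86 over stages, stood at -0.20 within them. Epyc lay below the olfactory 95th percentile on all arrays from T1 on, and Kera on all from T2 on. Their value within stages thus rests largely on background signals and does not show whether the genes vary together.

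**Figure D5:**
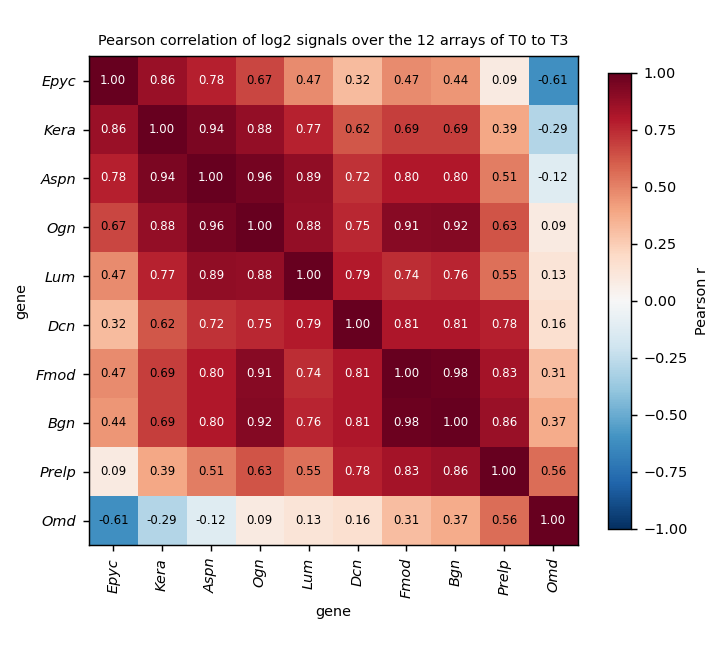
Pearson correlations between the 10 genes over the 12 arrays of T0 to T3 are drawn as a matrix, from -1 (blue) to 1 (red). Bgn, Fmod and Ogn are close to each other, and Omd is at or below 0.56 with every other gene.

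The genes whose signals followed each member most closely over T0 to T3 were taken from 17475 named genes. For Aspn the nearest was the matricellular protein periostin (Postn, 0.992), whose mean was 12.29 at T0, 9.72 at T1 and 6.98 at T2. It was followed by Pgm3, an enzyme that makes the sugar donor of glycosylation (0.987), and Pakap (0.987). For Kera they were the muscle genes Des (0.992), Tpm2 (0.991) and Mybpc1 (0.991), and for Epyc the perinatal myosin Myh8 (0.991), the cell surface proteoglycan Gpc3 (0.990) and the muscle troponin Tnnt2 (0.988). For Bgn they were the peptide-amidating enzyme Pam (0.995), the amino acid carrier Slc38a2 (0.991) and Pigt (0.987), and for Fmod Penk, Bgn (both 0.984) and Myo6 (0.983). Ogn was nearest to Neo1 (0.992), Lrrc58 (0.990) and Plpp1 (0.990). Omd was nearest to the metal carrier Slc39a8 (0.972), Ifi30 (0.972) and Serpinb9 (0.962). Dcn was nearest to Ecrg4 (0.943), the serine protease Htra1 (0.938) and Bace2 (0.932), Lum to Pcdhb20 (0.956), Cpxm2 (0.939) and Mras (0.933), and Prelp to Ppp1r37 (0.979), Ap3d1 (0.975) and Lancl1 (0.971). Over all 15 arrays some of these values were lower: Bace2 with Dcn stood at 0.555 and Ifi30 with Omd at 0.464.

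For the lists that follow, the share of all named genes called is the comparison. From T0 to T1 6.28% rose and 4.93% fell, from T0 to T2 9.25% rose and 9.56% fell. From T1 to T2 0.633% rose and 0.633% fell, and from T2 to T3 0.022% rose and 0.116% fell. From T3 to T4 14% rose and 32.3% fell, and from T2 to T4 25% rose and 38.4% fell. Relatives outside the 10 members were read from a list of 9 leucine-rich repeat proteins, of which 6 were measured. From newborn to youth 2 rose and 2 fell, with a median of 0.01. Chad, which encodes chondroadherin, a cartilage protein that binds collagen and integrins, rose by 2.80 (SE 0.49, limma adjusted p = 0.00192), as did Podnl1 by 1.39 (SE 0.29, limma adjusted p = 0.00722). Lrrc17 fell by 1.73 (SE 0.21, limma adjusted p = 0.000129). From T2 to T4 Chad fell by 4.0 (SE 0.49, limma adjusted p = 4.55e-05), while Nyx and Optc rose by 1.22 and 0.97 (SE 0.28 and 0.23, limma adjusted p = 0.00234 and 0.00304). Their T4 means of 5.17 and 6.14 lay below the lowest olfactory 95th percentile of that stage (6.53).

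Among the collagens that these proteoglycans bind, 14 were measured (16 listed). From T0 to T1 6 fell, from T1 to T2 2 fell and over both steps 11 fell. None rose, and the median changes were -1.02, -1.11 and -2.13. Col9a2, a chain of the collagen IX that coats cartilage fibrils, fell by 2.87 from T0 to T2 (SE 0.23, limma adjusted p = 9.63e-07). Col6a2, of the pericellular collagen VI, fell by 2.40 (SE 0.22, limma adjusted p = 3.21e-06), and Col14a1, of a fibril-associated collagen, by 4.30 (SE 0.48, limma adjusted p = 1.99e-05). From adult to T3 none passed by limma, and 4 had an unadjusted p under 0.05, as did 19.8% of all probe sets. At the last step 9 fell, where 32.3% of all named genes did.

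Among 16 measured growth factors and receptors bound by family members (17 listed), 2 rose and 3 fell from T0 to T1, and 4 rose and 8 fell from T0 to T2. Tgfb1 rose by 1.22 from T0 to T2 (SE 0.19, limma adjusted p = 0.000393), while Tgfb3 fell by 2.21 (SE 0.31, limma adjusted p = 0.000142). Tlr2, an innate immune receptor for free biglycan, rose by 1.65 (SE 0.23, limma adjusted p = 0.000132). Myeloid markers rose over the same stages (list mean 5.55 at T0 and 10.36 at T2), and their part in the Tlr2 and Tgfb1 values was not tested.

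Enzymes that build chondroitin and dermatan sulfate chains changed as follows. Of 24 measured (25 listed), 1 rose and 2 fell from T0 to T1, and 3 rose and 6 fell from T0 to T2. Both epimerases that turn chondroitin into dermatan sulfate were among those that fell from T0 to T2, Dse by 2.08 (SE 0.23, limma adjusted p = 2.05e-05) and Dsel by 2.19 (SE 0.30, limma adjusted p = 0.000143). Of 10 enzymes of keratan sulfate and tyrosine sulfation, 1 rose from T0 to T2, the chain-extending B3gnt2 (2.01, SE 0.19, limma adjusted p = 5.27e-06), and none fell. From T2 to T4, 18 of the 24 and 5 of the 10 fell, beside 38.4% of all named genes, among them Xylt1, which starts the chain (-2.0, SE 0.29, limma adjusted p = 0.000121).

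Of 14 proteases reported to cleave family members, 1 rose and 1 fell from T0 to T1. From T0 to T2 1 rose and 4 fell. The neutrophil collagenase Mmp8 rose by 5.50 from T0 to T2 (SE 0.82, limma adjusted p = 0.000268), beside the rise of myeloid markers given above. Mmp14, a membrane-bound collagenase, fell by 2.00 (SE 0.30, limma adjusted p = 0.00028), as did Adamts1, by 1.64 (SE 0.30, limma adjusted p = 0.00142). From T2 to T4 8 of the 14 fell, including the bone protease Ctsk, which fell by 3.03 (SE 0.49, limma adjusted p = 0.000233), and Htra1, which fell by 2.33 (SE 0.40, limma adjusted p = 0.000323).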

How the data were processed

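The deposited values are log2 signals of 15 Affymetrix RaGene 2.0 ST arrays. Per the submitters' processing notes they come from RMA, a method that corrects background, equalises array distributions and summarises probes. The sources used here name no version, library file or genome build. No further normalization was applied. Probe sets were named from the platform annotation where they carried a single symbol (18511 of 36685), and the highest mean stood for a gene. The model, run in limma 3.58.1 (R 4.3.3), had 1 mean for each stage and used every array (10 residual degrees of freedom). P-values of the 6 comparisons were each adjusted by Benjamini-Hochberg over the whole array, with calls made at 0.05. The script was tested on simulated data. The number of arrays limits the precision.

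Members and lists were chosen with earlier results of these data known. Genes named were the members, up to 3 called genes of smallest p per list and comparison, defining markers, and the 3 nearest genes of each member. Neighbour ratios, motifs, the olfactory background and the minimum of 8 were set after values were seen. Alternatives were 8 other settings and 15 fits without 1 array each. For the array weights, limma's estimate stopped before its convergence tolerance, which limits all values given with array weights.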

Additional observations from a re-analysis of the deposited data

How the results depend on the processing

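Of the 60 member changes 26 were called, 20 kept their call in every alternative run, and no called change reversed. The cause of the differences below was not tested. From T0 to T1 the 4 members called became 3 to 6. From T1 to T2 the 1 called became 2 without dim probe sets, 0 with T1 replicate 3 placed with T2, 4 with array weights and 1 to 2 when leaving out 1 array. From T2 to T3 the 0 called became 4 with array weights, 1 without the T4 arrays and 0 to 3 when leaving out 1 array (3 without T3 replicate 3, 1 without T4 replicate 1). From T0 to T2 array weights gave 8 in place of 5. From T3 to T4 only the 6 arrays compared gave 4 in place of 8. From T2 to T4 all alternatives gave 8.

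Changes that reversed were all uncalled. With quantile normalization they were, from T0 to T1, Dcn 0.093, Bgn 0.084, Fmod 0.003 and Lum 0.106, then Epyc -0.044 (T1 to T2), Dcn 0.126 (T2 to T3), Kera -0.088 (T3 to T4) and Epyc -0.184 (T2 to T4). With T1 replicate 3 placed with T2 they were Lum 0.052 (T0 to T1), Epyc -0.131 (T1 to T2), Lum -0.184 and Kera -0.156 (T2 to T3) and Kera -0.103 (T2 to T4). With array weights they were Lum 0.003 (T0 to T1) and Kera -0.165 (T2 to T3). Leaving out 1 array gave, from T0 to T1, Dcn -0.201 to 0.005 and Lum -0.238 to 0.158, and, from T1 to T2, Epyc -0.153 to 0.196. From T2 to T3 it gave Dcn -0.775 to 0.475, Lum -0.149 to 0.369, Kera -0.091 to 0.795, Epyc -0.342 to 0.007 and Aspn -1.096 to 0.291. Elsewhere it gave Kera -0.383 to 0.540 (T3 to T4), Prelp -0.087 to 0.259 (T0 to T2) and Epyc -0.062 to 0.287 (T2 to T4).

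Counts over all probe sets moved more. They were 2772 (1777 to 6852) from T0 to T1, 327 (9 to 2381) from T1 to T2, 55 (0 to 10464) from T2 to T3, 15493 (2532 to 21580) from T3 to T4, 4659 (3508 to 9230) from T0 to T2, 20728 (12321 to 24855) from T2 to T4 and 22043 (9366 to 30356) in the F test. Of 816 recomputed counts of the partner lists, 125 moved by over 1.5 times. Arrays of the same replicate number did not deviate together (correlations -0.19 to 0.12, and 4 of 15 arrays closest to their own number), so the numbers do not pair the samples. With the replicate number as a block, 271 probe sets were called from T1 to T2 and 32 from T2 to T3, and Kera and Omd kept their changes of -3.33 (T1 to T2) and 2.85 (T0 to T1). Averaging the probe sets of a gene was not run, since each member has 1. Signals at the background, as for Kera and Epyc from T2 on, limit what their changes can show.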
